A study of Mus musculus with 9 samples.

Results

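The CC chemokine genes described here are Ccl3, Ccl4, Ccl2, Ccl7, Ccl12, Ccl5 and Ccl6, chosen by gene symbol from a table of 6462 genes; all 7 were listed and all 7 passed the filter on level that left 5643 genes to test. RNA was sequenced from BV2 cells, an immortalized line of mouse microglia, in 3 groups of 3 libraries: untreated cells (0 h), cells kept with lipopolysaccharide (LPS, 200 ng/ml) for 1 h, and cells kept with the same dose for 12 h. No genetic change was named for any group. The only untreated cells are those at 0 h, and the effects of LPS and of hours in culture therefore cannot be told apart. BV2 is 1 line, and no label ties a library to a culture of its own. The p-values below thus reflect the spread among these 9 libraries, which may be technical. Levels are in FPKM (fragments per kilobase of transcript, scaled to the depth of the library), and values are the mean ± SD of 3 libraries unless each library is given.

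CC chemokines are small secreted proteins named for adjacent cysteines near the start of the mature protein. They bind G protein-coupled receptors on leukocytes and guide their movement, and microglia are a main source of them in the inflamed brain. CCL3 and CCL4 attract macrophages, monocytes and T cells, CCL3 in part through CCR1; CCL2, CCL7 and CCL12 attract monocytes through CCR2; CCL5 attracts T cells and monocytes, in part through CCR1; and CCL6 is a rodent chemokine that binds CCR1. LPS is sensed by Toll-like receptor 4, which turns on NF-κB and, through a second adaptor, interferon regulatory factors.

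The genes differed in when they rose. Ccl3 and Ccl4 reached most or all of their 12 h level within 1 h, Ccl2 rose in steps of similar size on the log scale, Ccl7 and Ccl5 rose mainly after 1 h, Ccl12 was called only in the comparisons with 12 h, and Ccl6 fell slightly at 1 h and was slightly higher at 12 h. At 1 h, 5 of the 7 were called higher, 1 lower and 1 did not pass, and at 12 h all 7 were called higher (limma, Benjamini-Hochberg adjusted p under 0.05 over the 5643 genes). Over all tested genes 24.1% were called higher and 34.9% lower at 1 h, and 41.1% higher and 40.6% lower at 12 h. The median log2 difference of the 7 genes was 1.60 at 1 h and 4.01 at 12 h, against -0.03 and 0.03 over all tested genes. Every listed gene carries the authors' flag and a deposited q-value of at most 0.09993, so these shares describe a selected table and not all genes. What was selected for is not stated, and 5 listed genes are at 0 in all 9 libraries. Both comparisons use the same untreated libraries.

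**Figure D1:**
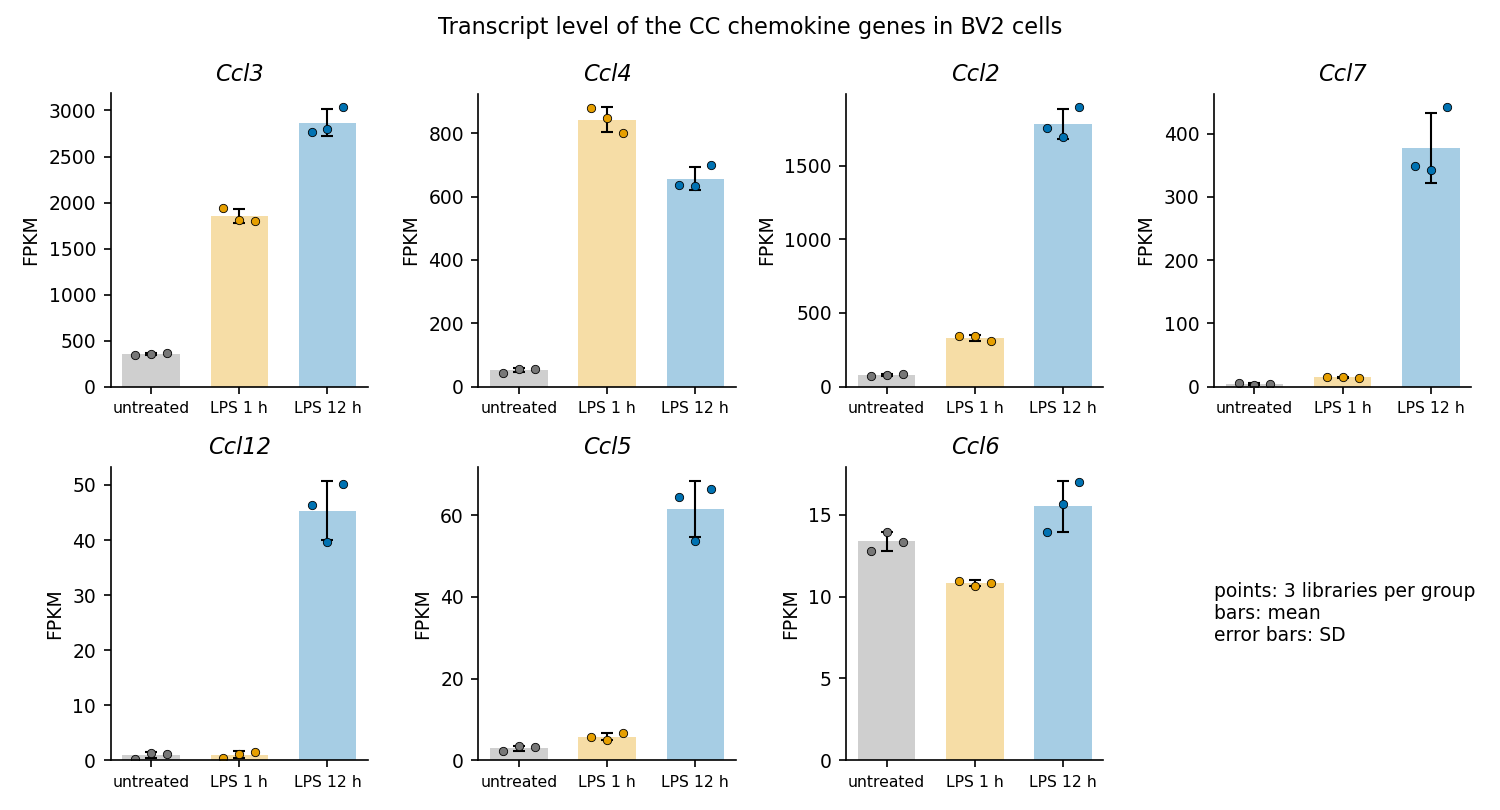
FPKM of each gene (vertical axis, linear from 0, a different scale in each panel) in untreated cells and after 1 h or 12 h with LPS; points are the 3 libraries, bars the mean and error bars the SD. Ccl4 was highest at 1 h (801.4 to 878.3 FPKM), whereas the other 6 genes were highest at 12 h.

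Promoter sequence from RefSeq (build GRCm38.p6) was matched by symbol for 3 of the 7 genes, 1 of each kind: Ccl3, high within 1 h, Ccl12, high only at 12 h, and Ccl6, which hardly moved. Each run below is the 250 bases before the annotated start, 5′ to 3′ on the gene's own strand, with matches to any of 6 motifs in capitals. They lie at chr11:83649379-83649628 (minus strand) for Ccl3, chr11:82101595-82101844 (plus strand) for Ccl12 and chr11:83593088-83593337 (minus strand) for Ccl6.

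Ccl3: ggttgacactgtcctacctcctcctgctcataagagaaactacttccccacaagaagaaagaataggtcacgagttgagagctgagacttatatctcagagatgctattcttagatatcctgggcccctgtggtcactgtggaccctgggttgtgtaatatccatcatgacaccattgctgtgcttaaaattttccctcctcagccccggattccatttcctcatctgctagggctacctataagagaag
Ccl12: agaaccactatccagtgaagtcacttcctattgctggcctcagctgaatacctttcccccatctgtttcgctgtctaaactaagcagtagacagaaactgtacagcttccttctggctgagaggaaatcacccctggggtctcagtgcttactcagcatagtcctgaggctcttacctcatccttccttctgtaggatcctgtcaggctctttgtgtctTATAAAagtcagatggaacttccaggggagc
Ccl6: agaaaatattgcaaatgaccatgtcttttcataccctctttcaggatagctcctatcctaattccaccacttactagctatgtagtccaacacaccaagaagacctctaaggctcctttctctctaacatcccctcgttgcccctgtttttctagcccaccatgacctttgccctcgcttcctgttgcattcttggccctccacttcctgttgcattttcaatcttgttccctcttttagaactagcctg

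The motifs were searched on both strands, with overlaps allowed. For NF-κB the κB motif was used, and for AP-1 its site TGANTCA. The interferon-stimulated response element was written as GAAA, any 2 bases, then GAAA. The other 3 are core promoter elements, the TATAAA box, the GC box written as GGGCGG, and the CCAAT box. In the Ccl12 window TATAAA was found on the plus strand from 31 to 26 bases before the start, and none of the other 5 motifs was found. None of the 6 was found in the Ccl3 or the Ccl6 window. Among 32851 RefSeq windows of the same length, 3.9% held the κB motif, 2.98% the response element, 6.75% AP-1, 12.4% TATAAA, 32.7% the GC box and 33.8% CCAAT. A match describes these letters only, and no match says nothing of binding farther away or at other letters.

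Ccl3 and Ccl4 encode the macrophage inflammatory proteins 1α and 1β. Ccl3 stood at 339.2, 357.4 and 363.6 FPKM in the 3 untreated libraries, at 1937, 1815 and 1803 at 1 h, and at 2768, 2802 and 3033 at 12 h. The 3 groups did not overlap, and every later library lay above every earlier one. The log2 difference from untreated cells, here and below in log2(FPKM + 1), was 2.39 at 1 h (SE 0.0383, adjusted p = 8.31e-16) and 3.02 at 12 h (adjusted p = 7.41e-17). The further rise of 0.63 between 1 h and 12 h passed (adjusted p = 1.69e-09), but not under quantile normalization (0.11, adjusted p = 0.147). That method gives genes of equal rank equal values, and Ccl3 had rank 3 among the listed genes in each 1 h library and rank 2 or 3 in each 12 h library. It was already rank 57 to 69 of the listed genes in untreated cells.

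Ccl4 was the gene whose level turned down. It stood at 44.41, 56.2 and 57.07 FPKM in untreated cells, at 878.3, 847.0 and 801.4 at 1 h, and at 637.5, 632.0 and 698.9 at 12 h. The 1 h libraries were all above the 12 h libraries, which were all above the untreated ones. Against untreated cells it rose by 3.98 at 1 h (SE 0.0728, adjusted p = 3.69e-15), rank 5 among the tested genes, and by 3.62 at 12 h (adjusted p = 1.12e-14). Between 1 h and 12 h it fell by 0.36 (adjusted p = 0.000347), where the other 6 genes were called higher; 41.9% of all tested genes were called higher and 43.6% lower in that comparison.

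Because FPKM is per length, the level of 2 genes may be set against each other within a library. There were 0.148 ± 0.015 Ccl4 transcripts per Ccl3 transcript in untreated cells, 0.455 ± 0.011 at 1 h and 0.229 ± 0.0028 at 12 h, with no overlap between groups. Ccl4 fell from 1 h to 12 h while Ccl3 rose. RefSeq places the gene spans of Ccl3 and Ccl4 on opposite strands of chromosome 11 with 755 shared bases. GENCODE M21 has no overlap between them, and the deposited table pairs Ccl4 with a predicted RefSeq transcript. The library kit keeps strand, but whether counting used it is not given in the sources used here. Reads of one gene may therefore have been counted to the other, and their part in the Ccl4 values was not tested.

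Ccl2, the main ligand of CCR2 and the best known monocyte attractant, stood at 71.54, 77.09 and 82.81 FPKM in untreated cells, at 345.6, 340.7 and 307.8 at 1 h, and at 1754, 1697 and 1895 at 12 h. The groups were far apart at both steps. Its mean level was 4.30 times the untreated one at 1 h and 23.1 times at 12 h. The log2 difference was 2.09 at 1 h (SE 0.0541, adjusted p = 1.89e-13) and 4.51 at 12 h (adjusted p = 4.98e-17), so 46.3% of the 12 h difference was present at 1 h on that scale. Ccl2 had rank 5 among the listed genes by level in all 3 of the 12 h libraries, and rank 436 to 513 in untreated ones.

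Ccl7, which attracts monocytes through CCR2 and other cells through further receptors, stood at 5.076, 3.076 and 4.342 FPKM in untreated cells, at 15.06, 15.17 and 13.32 at 1 h, and at 348.7, 342.3 and 441.2 at 12 h. It rose at 1 h by 1.60 (SE 0.118, adjusted p = 4.49e-08) and at 12 h by 6.20 (adjusted p = 7.07e-15), rank 2 among the tested genes. Its mean FPKM at 12 h was 90.6 times that of untreated cells and 26.0 times that at 1 h. Ccl7 and Ccl2 are neighbours, yet their ratio was not constant: there were 0.0544 ± 0.016 Ccl7 transcripts per Ccl2 transcript in untreated cells, 0.0438 ± 0.00066 at 1 h and 0.211 ± 0.019 at 12 h. The 1 h ratios lay within the range of the untreated ones, and the 12 h ratios above both.

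Ccl12, a mouse CCR2 ligand related to Ccl2, stood at 0.3009, 1.27 and 1.093 FPKM in untreated cells, at 0.3905, 1.111 and 1.555 at 1 h, and at 46.3, 39.56 and 50.19 at 12 h. The untreated and 1 h libraries overlapped and all 12 h libraries lay far above both. The log2 difference was 0.09 at 1 h (95% interval -0.35 to 0.53, adjusted p = 0.714) and 4.65 at 12 h (SE 0.205, adjusted p = 4.2e-11). Without untreated library 1 the 1 h value was -0.16 and without 1 h library 3 it was -0.10, so its sign at 1 h is not set by these data. From a rough depth of 20900000 fragments per library, the untreated levels of Ccl12 rest on about 3 to 14 fragments. A 1 h rise of up to 0.53 in log2(FPKM + 1) lies within the interval. At these low levels the pseudocount shrinks changes, so the same rise is larger in FPKM itself.

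Ccl5 stood at 2.168, 3.36 and 3.144 FPKM in untreated cells, at 5.73, 4.889 and 6.625 at 1 h, and at 64.6, 53.62 and 66.35 at 12 h. The groups did not overlap. It rose by 0.80 at 1 h (SE 0.114, adjusted p = 4e-05) and by 4.01 at 12 h (adjusted p = 3.74e-13), and 19.9% of the 12 h difference was present at 1 h. In FPKM the 1 h level was 9.34% of the 12 h level for Ccl5, against 3.85% for Ccl7, 2.25% for Ccl12, 18.6% for Ccl2, 64.6% for Ccl3 and 128% for Ccl4. No stretch of 50 bases of the protein-coding transcripts of the 7 genes was found in a transcript of another gene (GENCODE M21, both strands), the related Ccl2 and Ccl12 included. For Ccl3 and Ccl4 this search decides nothing. GENCODE M21 lacks the overlap of 755 bases that RefSeq gives their spans, and RefSeq transcripts were not searched.

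Ccl6 took no part in the large changes. It stood at 12.82, 13.98 and 13.34 FPKM in untreated cells, at 10.99, 10.65 and 10.85 at 1 h, and at 13.93, 15.65 and 17.02 at 12 h. It fell by 0.28 at 1 h (SE 0.0576, adjusted p = 0.000837), where the libraries did not overlap, and was 0.20 higher at 12 h (adjusted p = 0.00566), where the lowest 12 h library lay just below the highest untreated one. The rise of 0.48 between 1 h and 12 h passed (adjusted p = 2.61e-06). Ccl4 transcripts outnumbered Ccl6 transcripts 3.92 ± 0.42 times in untreated cells, 77.8 ± 3.4 times at 1 h and 42.4 ± 2.9 times at 12 h.

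**Figure D2:**
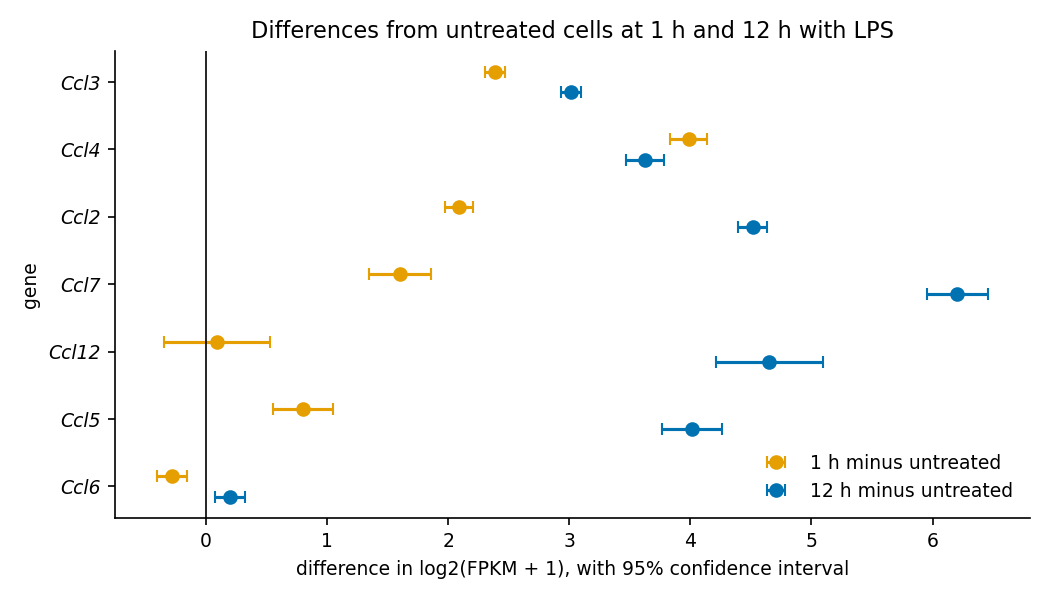
Difference from untreated cells in log2(FPKM + 1) (horizontal axis) of each gene at 1 h and 12 h with LPS, with 95% confidence intervals from the limma fit. The 12 h value lies left of the 1 h value for Ccl4 only, and the 1 h interval of Ccl12 (-0.35 to 0.53) includes 0.

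Whether a gene rose more after the first hour than within it was tested as a contrast of its own in the same fit, the 12 h minus 1 h step less the 1 h minus untreated step; these steps span unequal times. The contrast was called negative for the early genes, at -4.34 for Ccl4 (adjusted p = 8.26e-13) and -1.75 for Ccl3 (adjusted p = 1.89e-11). It was called positive for the other 5 genes, at 4.47 for Ccl12, 3.00 for Ccl7, 2.41 for Ccl5, 0.76 for Ccl6 and 0.33 for Ccl2. Over all tested genes 37.2% were called positive and 37.4% negative. For Ccl2 the 2 steps were thus close, and the contrast was 0.21 under quantile normalization (adjusted p = 0.0354). The early and late names were given with these levels known, so the signs are a description of the groups and no independent support for them.

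Set against Ccl2 in the same library, Ccl4 was lower in untreated cells (0.68 ± 0.055 transcripts per Ccl2 transcript), higher at 1 h (2.54 ± 0.059) and lower again at 12 h (0.368 ± 0.0045), with no overlap between groups. For 6 pairs of genes the within-library ratios were compared between groups, 18 comparisons in all. The smallest two-sided exact permutation p that 3 against 3 libraries allow is 0.1, so none can pass 0.05. Other gene pairs were not compared, so the counts below have no background and are not read as a trait of these pairs. For the FPKM ratios printed here, p was 0.1 in 15 comparisons, whose groups did not overlap. In the other 3 the groups overlapped: Ccl7 to Ccl2 (p = 0.4) and Ccl12 to Ccl2 (p = 0.2) at 1 h against untreated cells, and Ccl5 to Ccl2 (p = 0.6) at 12 h against untreated cells, all by the exact permutation test. On the log2(FPKM + 1) scale p was 0.1 in 17 comparisons and 0.7 in Ccl12 to Ccl2 at 12 h against untreated cells, so for these low genes the pseudocount decides which ratios overlap.

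**Figure D3:**
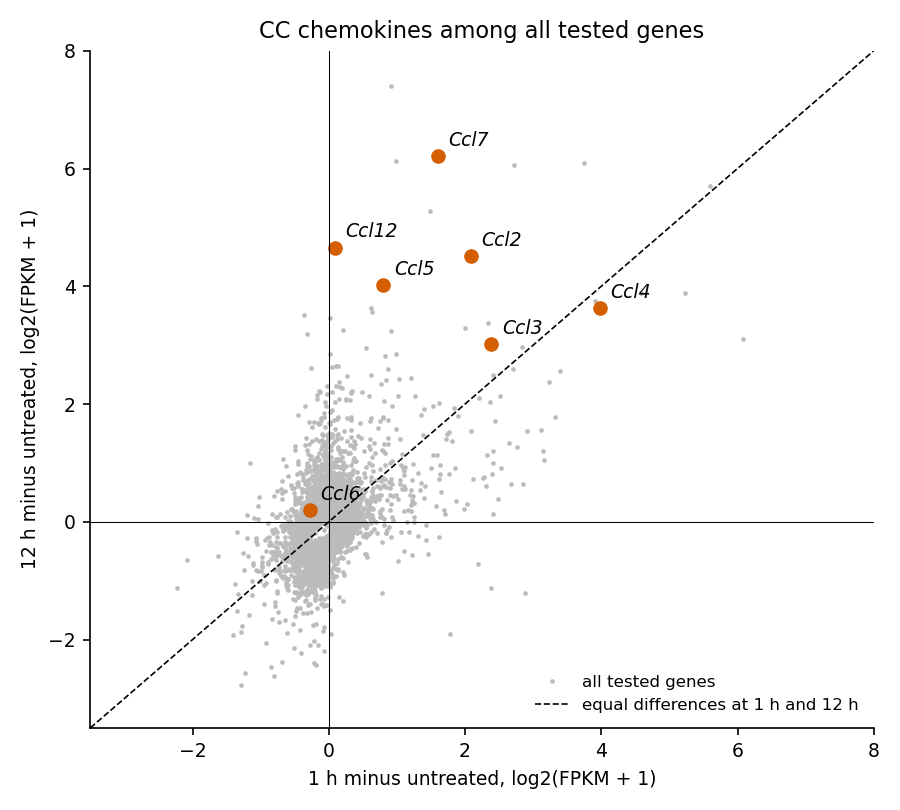
Differences from untreated cells in log2(FPKM + 1) at 1 h (horizontal axis) and 12 h (vertical axis) for the 5643 tested genes, with the 7 chemokine genes marked; the broken line marks equal differences. Ccl4 lies just below the line, Ccl3 near it, and Ccl12 and Ccl7 far above it at 4.65 and 6.20 on the vertical axis.

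The order of the genes by level changed with time. In untreated cells it ran Ccl3, Ccl2, Ccl4, Ccl6, Ccl7, Ccl5 and Ccl12, and of neighbours in this order Ccl7 and Ccl5 alone overlapped between libraries. At 1 h the order was Ccl3, Ccl4, Ccl2, Ccl7, Ccl6, Ccl5 and Ccl12, and at 12 h Ccl3, Ccl2, Ccl4, Ccl7, Ccl5, Ccl12 and Ccl6, with no overlap between neighbours at either time. Ccl6 went from rank 4 to rank 7 without a large change of its own.

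Together the 7 genes summed to 504.4 ± 25.8 FPKM in untreated cells, 3057 ± 126 at 1 h and 5806 ± 344 at 12 h. Ccl3 made up 70.1 ± 1.11% of that sum in untreated cells, 60.6 ± 0.716% at 1 h and 49.4 ± 0.686% at 12 h. The share of Ccl4 was 10.4 ± 0.913%, 27.6 ± 0.351% and 11.3 ± 0.029% in the same order, and that of Ccl2 15.3 ± 0.413%, 10.8 ± 0.387% and 30.7 ± 0.388%. Ccl7 came to 6.48 ± 0.551% at 12 h, from 0.832 ± 0.234% in untreated cells. Ccl12 and Ccl5 made up 0.78 ± 0.0621% and 1.06 ± 0.0937% at 12 h, so large folds in these went with small parts of the total.

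**Figure D4:**
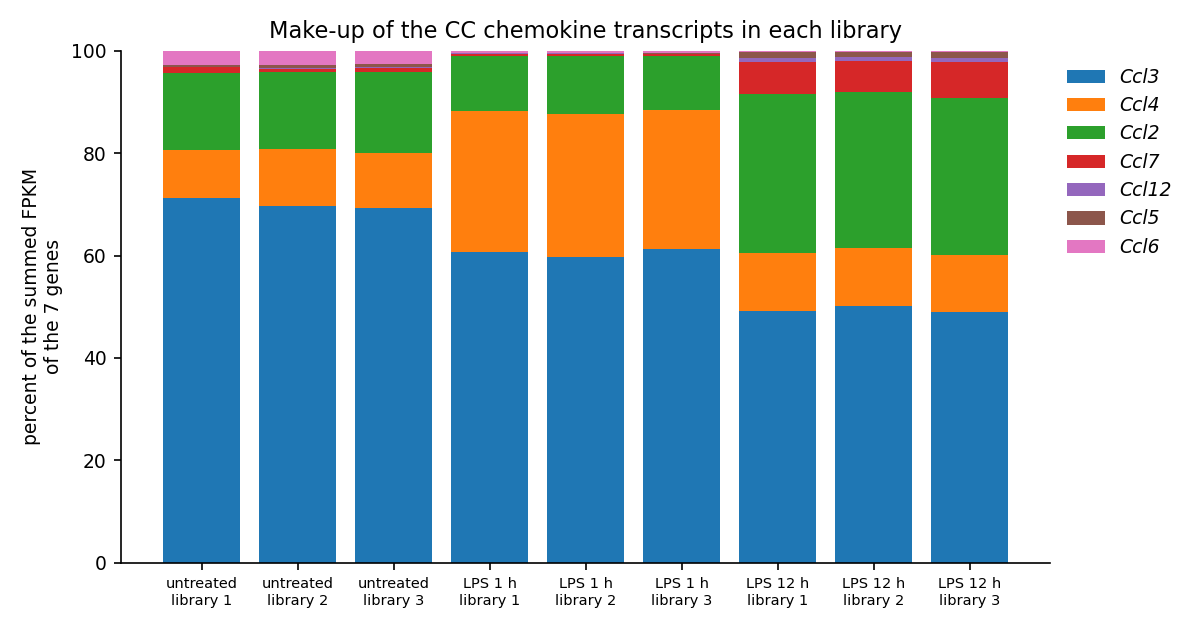
Percent of the summed FPKM of the 7 genes (vertical axis) that each gene made up in each of the 9 libraries (horizontal axis). Ccl4 takes 27.2% to 27.9% in the 1 h libraries, and Ccl2 takes 30.4% to 31.1% in the 12 h libraries.

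The genes lie in a pair of neighbourhoods on chromosome 11. In RefSeq order one holds Ccl2, Ccl7, Ccl11, Ccl12, Ccl8 and Ccl1, and the other Ccl5, Ccl9, Ccl6, Ccl3 and Ccl4; Ccl11, Ccl8 and Ccl1 were not analysed here. The 3 genes measured in the first neighbourhood were among those with a larger second step, as were 37.2% of all tested genes. The second held the early Ccl3 and Ccl4, the late Ccl5 and the nearly flat Ccl6 side by side. In it the second step was also called larger for Ccl5 (by 2.41), Ccl9 (1.24) and Ccl6 (0.76), against 0.33 for Ccl2 in the first. Ccl9, a CCR1 ligand between Ccl5 and Ccl6, stood at 26.1 ± 0.367 FPKM in untreated cells, 28.7 ± 0.741 at 1 h and 75.9 ± 8.91 at 12 h. Ccl9 differed by 0.13 at 1 h (adjusted p = 0.075), and its 12 h mean was 2.90 times the untreated one (adjusted p = 1.25e-11). The limma call at 1 h turned on the shared spread: with 12 h library 2 left out the adjusted p was 0.0468, with 12 h library 3 left out it was 0.00438, and in a fit of the 2 groups alone it was 0.00693.

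**Figure D5:**
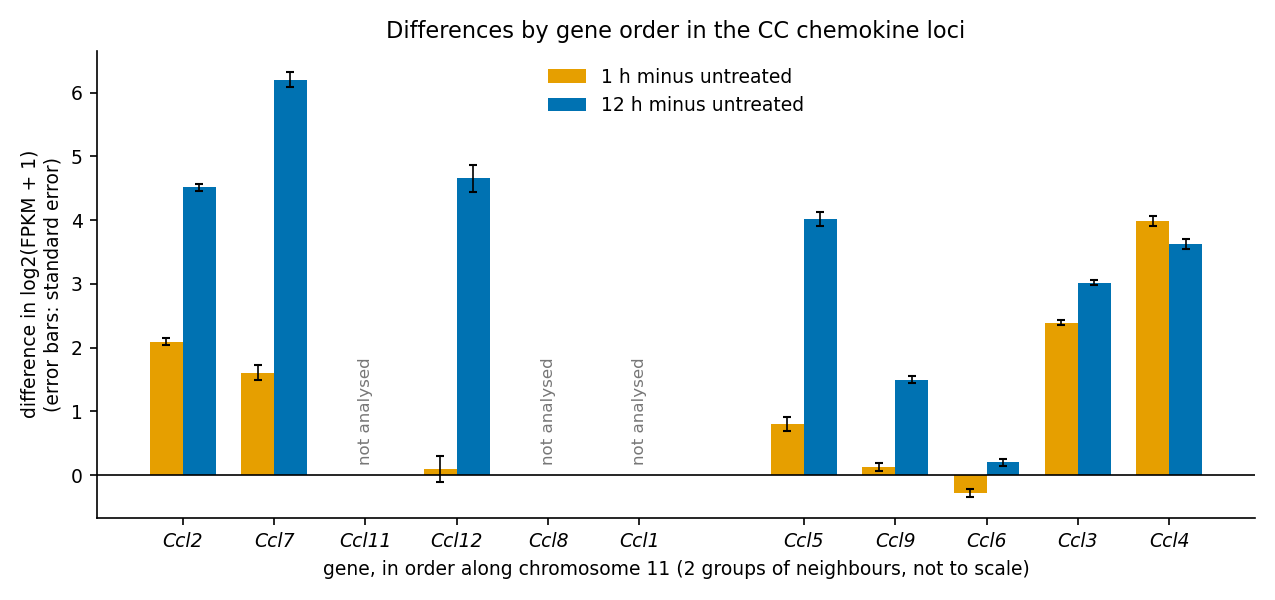
Difference from untreated cells in log2(FPKM + 1) (vertical axis; bars the difference, error bars the standard error) at 1 h and 12 h for the genes in their order along chromosome 11 (horizontal axis, not to scale). In the right-hand group Ccl5 (4.01 at 12 h) and Ccl4 (3.98 at 1 h) stand at the ends, with Ccl9, Ccl6 and Ccl3 between them.

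Of the 14 other CC chemokine genes looked for, 4 were listed and Ccl9 alone passed the filter. Ccl24, an attractant of eosinophils, was at 1.17 ± 0.296 FPKM in untreated cells, 1.06 ± 0.287 at 1 h and 0.133 ± 0.0417 at 12 h, and Ccl17 and Ccl22, ligands of CCR4, did not exceed 0.1754 FPKM in any library. Of 15 genes for receptors and scavengers, 6 were listed and 2 tested. Ccr1, a receptor for CCL3, CCL5 and CCL6, fell from 4.06 ± 0.308 to 1.49 ± 0.286 FPKM at 1 h (log2 difference -1.03, adjusted p = 5.03e-06) and was higher than in untreated cells at 12 h, at 5.85 ± 1.45 (0.42, adjusted p = 0.00477). Ccrl2, an atypical receptor that binds chemerin, rose from 0.181 ± 0.036 to 10.8 ± 0.354 FPKM at 1 h (3.32, adjusted p = 2.15e-14) and stood at 3.08 ± 0.452 at 12 h. Of those below the filter, Ccr4 reached 0.2093 FPKM and Ccr3 0.04199 at most, and Ackr4 was listed at 0 in all 9 libraries.

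Among 15 other chemokine genes, 6 were listed and 3 tested, of which 2 rose and 1 fell at both times. Over all tested genes 24.1% were called higher and 34.9% lower at 1 h, and 41.1% and 40.6% at 12 h. With 3 genes, nothing is read from these counts. Cxcl10, a T cell attractant, had 2.31 ± 0.205 FPKM before LPS, 123.3 ± 4.06 at 1 h and 47.8 ± 0.299 at 12 h, and Cxcl2, a neutrophil attractant, 0.171 ± 0.189, 55.2 ± 4.06 and 61.0 ± 15.8. Pf4, the platelet factor, fell from 115.8 ± 7.73 to 94.9 ± 3.52 and 61.5 ± 2.47.

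All 12 NF-κB subunit and inhibitor genes rose at 1 h, their median being 1.47 on the log2 scale, and 11 of 12 were called higher at 12 h (median 0.94), against medians of -0.03 and 0.03 over all tested genes. From 1 h to 12 h, 9 of the 12 fell and 3 rose, where 43.6% of all tested genes were called lower and 41.9% higher. Nfkbia, whose product holds NF-κB in the cytoplasm, went from 14.1 ± 1.18 to 140.6 ± 2.21 and 77.1 ± 1.56 FPKM. Of 7 tested interferon regulatory and STAT genes, 1 rose and 2 fell at 1 h, and 5 rose at 12 h (median 0.66). The shares over all tested genes were 24.1% higher and 34.9% lower at 1 h, and 41.1% higher and 40.6% lower at 12 h, so the counts of the 7 at 1 h are not above the background. Irf7 stood at 9.67 ± 1.05 FPKM in untreated cells, 9.81 ± 1.05 at 1 h and 75.9 ± 5.84 at 12 h. Irf1 rose at 1 h, from 6.01 ± 0.467 to 15.7 ± 0.718, and stood at 6.45 ± 0.284 at 12 h (adjusted p = 0.153). That 12 h value of Irf1 was called without untreated library 1 (adjusted p = 0.0396) and under quantile normalization (adjusted p = 0.0224).

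Of 9 tested genes for mRNA decay and stability, 5 rose and 2 fell at 1 h, and 3 rose and 5 fell at 12 h, the latter near the 41.1% and 40.6% of all tested genes. At 1 h the shares over all tested genes were 24.1% and 34.9%. Zfp36, which speeds the decay of many inflammatory mRNAs, went from 17.1 ± 1.27 to 89.97 ± 2.94 and 38.7 ± 2.51 FPKM, and Zc3h12a, an mRNA endonuclease, from 1.77 ± 0.265 to 17.0 ± 0.488 and 15.7 ± 1.12. Of 6 tested genes for chemokine-degrading and chemokine-binding products, 2 rose and 1 fell at 1 h, and 4 rose and 1 fell at 12 h; with 6 genes and the same background shares, nothing is read from these counts. Sdc4, a heparan sulfate proteoglycan, was highest at 1 h (51.0 ± 1.19, 251.4 ± 4.84 and 87.3 ± 1.12 FPKM), and Srgn, the core protein of a granule proteoglycan, at 12 h (14.7 ± 0.69, 14.6 ± 1.32 and 32.7 ± 2.72 FPKM), as was Mmp12, a macrophage metalloproteinase that cleaves chemokines (3.15 ± 0.599, 3.48 ± 0.311 and 10.6 ± 1.62 FPKM).

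For each chemokine gene the 3 tested genes outside the 7 with the most similar profile were found, by the root mean square difference over the 9 libraries after each profile was set to 0 in untreated cells. Nearest to Ccl3 were Ptgs2 (0.233), Cd40 (0.293) and Il1b (0.30), and nearest to Ccl4 were Gdf15 (0.191), Tnf (0.398) and Gpr84 (0.715). Ccl2 was nearest to Il6 (0.58), Ptgs2 (0.677) and Cd40 (0.715), and Ccl7 to Csf3 (0.411), Il6 (0.563) and Saa3 (0.671). Ccl5 was nearest to Il1rn (0.123), Slpi (0.305) and Isg15 (0.322), and Ccl12 to Il1rn (0.62), Pim2 (0.729) and Slpi (0.736). Among the 7 themselves the nearest pair was Ccl12 and Ccl5 (0.593), nearer than Ccl12 was to any of those 3. The distances did not all follow the early and late names. Ccl3 was nearer to Ccl2 (0.882) than to Ccl4 (0.99), while Ccl2 was nearest to Ccl5 (0.814). Ccl6, whose profile was nearly flat, was nearest to Phospho2 (0.0548), Ceacam1 (0.0604) and Apobr (0.065). These distances are descriptions over libraries that share 3 conditions, and the names change with the pseudocount.

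Facts of the whole series bear on these levels in a few ways. The listed FPKM summed to 195872 to 198075 in untreated libraries, 203515 to 205413 at 1 h and 223720 to 228207 at 12 h. Of 13 microglia and macrophage markers 9 were listed, and their FPKM summed to between 1208 and 1297 before LPS, between 1168 and 1199 at 1 h, and between 1100 and 1147 at 12 h; Cd68 and Tyrobp led, P2ry12 did not exceed 1.51 FPKM, and Tmem119, Aif1 and Ptprc were not analysed here. No marker of neurons, astrocytes, endothelium or T and NK cells was listed; of 5 oligodendrocyte markers Olig2 was listed, at 0.08408 FPKM at most, and of 5 neutrophil markers Elane, at 0.1567 FPKM at most and 0 at 12 h. The single markers did not move together. Of 8 tested, 3 were called higher and 4 lower at 12 h, against 41.1% and 40.6% of all tested genes. Itgam, for one, went from 27.9 in untreated cells to 70.3 FPKM at 12 h, and Tyrobp from 559.8 to 412.3. The summed marker level moved with the groups, and its part in the chemokine values was not tested. In such bulk samples, fewer cells that make a transcript and less of it per cell cannot be told apart.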

How the data were processed

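The authors deposited 1 table with an FPKM value per gene for each of the 9 libraries. Per the labels, total RNA was taken with TRIzol and a TruSeq Stranded mRNA kit was used. Per the submitters' processing notes, Trimmomatic, HISAT2, Cufflinks, HTSeq and DESeq were used, with no version or role for any. The notes name GRCh38, a human build, for mouse genes, and the build of the values is not known here. Per the file headers, the deposited columns further include p-value, q-value, rank (a score) and flag, from a test that is not stated. All 6462 genes carry flag 1 and a deposited q-value of at most 0.09993, but in 6022 the deposited p-value is above the q-value, so what the columns hold is unclear; they served only to describe that selection and, through the ranks, 1 alternative.

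Differences are in log2(FPKM + 1), whose pseudocount shrinks changes near 0. Genes whose mean FPKM reached 1 (5643) entered limma 3.58.1 (R 4.3.3; eBayes with trend, all 9 libraries, 1 mean per group), with Benjamini-Hochberg adjustment and a threshold of 0.05; the fit was tested on simulated data. Depth is not stated; taking the lowest value as 1 fragment in 36 low genes of 1 transcript gave about 20900000 fragments per library (quartiles 12800000 and 24100000), and precision is given by the spread over 3 libraries. The 7 genes and the gene lists were chosen with earlier results of these data known. Named genes are the 7, listed CC chemokine and receptor genes, called genes with the largest differences in each other list, and 3 nearest profiles per gene outside the 7; some genes under this rule are not reported here. Alternatives were pseudocounts of 0.1 and 0.5, other filters, other scalings, no trend, array weights, the groups compared alone, a replicate block, and leaving out each library; a wider adjustment, over the 21878 genes implied by the ranks, and ratios with no pseudocount were chosen after seeing the data.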

Additional observations from a re-analysis of the deposited data

Results flagged for a closer look

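For all 7 genes the difference from untreated cells was not the same at 1 h and 12 h, by the limma contrast of the 2 times. Over all tested genes 41.9% were called higher and 43.6% lower in that contrast, so a call there is common and not particular to these 7. Under quantile normalization Ccl3 was not called in the limma contrast (0.11, adjusted p = 0.147). The 12 h value was larger than the 1 h value by 4.60 for Ccl7, 4.56 for Ccl12, 3.21 for Ccl5, 2.42 for Ccl2, 0.63 for Ccl3 and 0.48 for Ccl6, and the difference was -0.36 for Ccl4. In Ccl6 the 2 values had opposite signs, -0.28 and 0.20. Both share the untreated libraries. With 3 libraries per group, single libraries were not screened for standing apart.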

How the results depend on the processing

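Over the alternatives run, 550 values for the 7 genes kept their direction and their side of the threshold, as did all 158 counts of called genes to within 1.5 times. The 3 exceptions were Ccl3 between 1 h and 12 h under quantile normalization (0.11) and Ccl12 at 1 h, which never passed and ran from -0.16 to 0.34 when 1 library was left out. Libraries of the same number were not more alike across groups than others. Correlations of their deviations were -0.0666 to 0.128, against -0.146 to 0.138 for libraries of different number. Whether same-numbered libraries were handled together is not shown by these values. With the replicate block, Ccl12 at 1 h was 0.09 (adjusted p = 0.59), and the block changed no call among the genes named; the counts at 1 h were 1338 higher and 1954 lower with it, against 1361 and 1969.

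The ratios between genes moved more; each value is a difference between groups in a log2 ratio, set against its value with a pseudocount of 1. Under quantile normalization Ccl4 to Ccl3 was 1.42 against 1.60 (1 h less untreated), 0.89 against 0.61 (12 h less untreated) and -0.53 against -0.99 (12 h less 1 h). There Ccl5 to Ccl2 was -0.27 against -0.50 and Ccl4 to Ccl6 3.25 against 3.43 (12 h less untreated), and Ccl4 to Ccl2 -2.67 against -2.78 (12 h less 1 h). For 12 h less untreated, pseudocounts of 0.5, 0.1 and none gave 0.60, 1.17 and 1.385 for Ccl12 to Ccl2, against 0.14, and -0.32, -0.15 and -0.10 for Ccl5 to Ccl2, against -0.50. Ccl7 to Ccl2 was 1.96 with 0.1 and 1.99 with none, against 1.69. For 12 h less 1 h, Ccl12 to Ccl2 was 2.57, 3.08 and 3.26 in that order, against 2.13, and Ccl5 to Ccl2 with none was 0.9975, against 0.79. Leaving out 1 library, Ccl12 to Ccl2 for 12 h less untreated ran from -0.057 to 0.29.

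Among other named genes 10 values gained a call and 10 lost one, and those that changed sign were not called in the main analysis. Mmp13 had a second step less its first of -0.36, -0.046 and -0.013 with pseudocounts of 0.1 and 0.5 and quantile normalization, and of -0.10 to 0.30 when 1 library was left out. At 1 h Irf7 was -0.013 with array weights and -0.059 to 0.086 without 1 library, and Mmp12 (-0.0048 to 0.19), Pim2 (-0.056 to 0.094), Srgn (-0.080 to 0.027) and Stat3 (-0.016 to 0.041) crossed 0 in the same way. At 12 h Irf8 was -0.050 under quantile normalization and -0.013 to 0.045 without 1 library. Between 1 h and 12 h Cxcl2 ran from -0.077 to 0.28 and Il1b from -0.0022 to 0.34. Of 28 sets of nearest genes, 15 changed with a pseudocount or scaling. The cause was not tested.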
